A study of Mus musculus with 2 samples.

Results

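The pro-B and pre-B cells of the mouse knee joint are B-lineage precursors, picked out here by transcripts of the pre-B receptor. Cells were first kept if they had 500 or more genes, 1000 or more UMIs (unique molecular identifiers, each standing for 1 captured RNA molecule) and up to 10% mitochondrial UMIs. A cell was a member if it held at least 1 UMI of Cd79a and at least 2 UMIs of Igll1 and Vpreb1 together, no C1qa, and S100a8 below 1% of its UMIs. This gave 228 cells among the 15174 that passed the quality limits, out of 24203 barcodes in all. Because Cd79a, Igll1 and Vpreb1 chose the cells, their levels are a description and support nothing.

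The cells came from collagenase-digested hindlimb knee joints of Col12a1 KO mice and of WT mice at postnatal day 7, both sexes pooled. Col12a1 encodes collagen XII, which associates with collagen fibrils, and the mice had no other treatment in the labels. The labels do not say how the KO allele was made, nor the strain. They give 3 libraries per genotype over 2 experiments, but the merged matrix has barcodes with only 2 endings, here barcode sets 1 and 2, and nothing ties an ending to a genotype. It is thus 1 pooled sample of both genotypes: KO and WT were not compared, there are no replicates, and no p-value is given.

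B cells develop from progenitors that first join gene segments of the immunoglobulin heavy chain with the Rag1 and Rag2 recombinase, while Dntt adds untemplated bases at the joins. A pro-B cell that makes a heavy chain pairs it with the surrogate light chain, built from the products of Igll1 and Vpreb1, to form the pre-B receptor with Cd79a and Cd79b. Signals from this receptor and from the interleukin-7 receptor drive a burst of division, after which small pre-B cells rearrange the light chain genes and lose the surrogate light chain. In the mouse these cells are found in the liver before birth and in bone marrow after it, and a knee joint dissection can hold marrow of the adjoining bones. How much marrow was in the joints was not recorded in the labels.

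Igll1 and Vpreb1, the genes that define these cells, lie near each other on the minus strand of chromosome 16 (mm10, GENCODE M21), at chr16:16860671-16863985 and chr16:16868403-16870843. The 250 bases before each gene's RefSeq start are shown. They were chosen because the transcription factors Ebf1 and Tcf3, an E protein, are known to act on these promoters. Ebf1 was at 3509 transcripts per 1000000 in the cells. Capitals mark matches, on either strand, to CCCNNGGG, the core letters of the Ebf1 motif, and to CAGGTG, an E-box. The sequences are from RefSeq on GRCm38.p6, at chr16:16863986-16864235 for Igll1 and chr16:16869256-16869505 for Vpreb1, both on the minus strand and written 5' to 3'.
Igll1: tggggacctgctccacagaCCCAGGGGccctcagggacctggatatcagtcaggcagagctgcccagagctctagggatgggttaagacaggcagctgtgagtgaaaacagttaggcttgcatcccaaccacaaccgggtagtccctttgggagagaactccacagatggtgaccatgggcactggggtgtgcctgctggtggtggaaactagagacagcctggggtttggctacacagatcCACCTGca
Vpreb1: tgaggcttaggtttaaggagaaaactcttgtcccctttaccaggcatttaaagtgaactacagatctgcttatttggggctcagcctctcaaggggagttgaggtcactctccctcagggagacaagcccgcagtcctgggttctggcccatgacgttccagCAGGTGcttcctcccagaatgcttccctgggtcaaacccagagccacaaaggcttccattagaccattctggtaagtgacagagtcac
The Igll1 stretch has CCCNNGGG starting 231 bases before the RefSeq start and CAGGTG, on the other strand, 8 bases before it. The Vpreb1 stretch has CAGGTG 88 bases before the RefSeq start and no CCCNNGGG in these letters. Of 32851 promoter stretches of this length in the RefSeq table, 11.8% held CCCNNGGG and 17.2% held CAGGTG. A match is a description of the letters, not a binding site. GENCODE M21 places an exon of a Vpreb1 transcript with no coding part inside the Vpreb1 stretch. The GENCODE span of Vpreb1 given above starts upstream of the RefSeq start, so the whole stretch lies inside that span.

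The 228 cells were 1.5% of the kept cells (95% exact binomial interval 1.32 to 1.71). Barcode set 1 held 88 of them, 1.23% of its kept cells (0.987 to 1.51), and set 2 held 140, 1.75% (1.47 to 2.06). They were 20.8% of the 1095 kept cells with at least 1 Cd79a UMI and within the C1qa and S100a8 limits. Together they gave 3233896 UMIs, 1234 to 80260 per cell, with a median of 9949.5 UMIs and 2973 genes. The median depth was 13657.5 UMIs in set 1 and 7948.5 in set 2, so single cells of set 2 were seen in less detail. Of the barcode sequences, 40 occurred in both sets and none of these marked a member. The intervals given throughout are 95% intervals for counting error alone. No doublet caller was run.

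**Figure D1:**
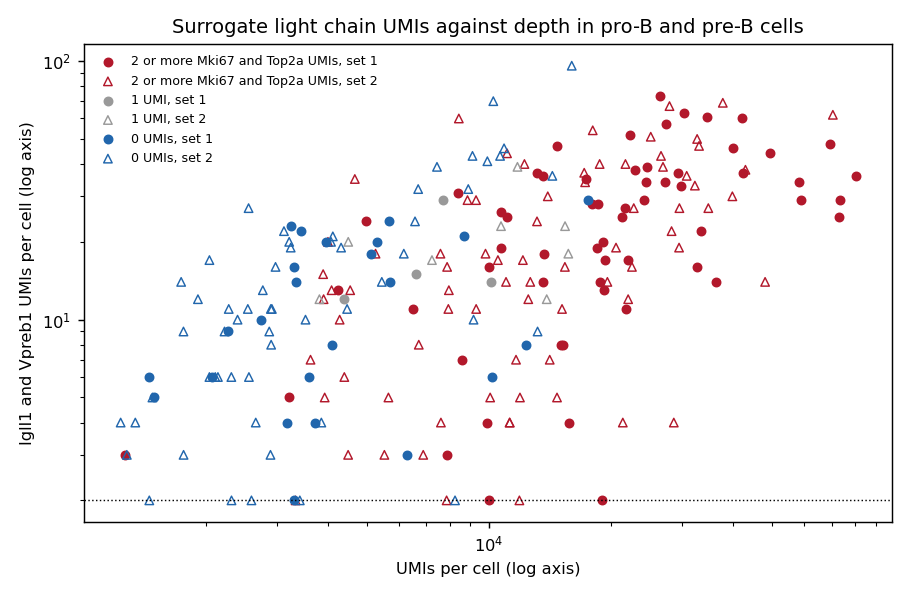
Each point is 1 pro-B or pre-B cell, with its total UMIs on the x axis and its UMIs of Igll1 and Vpreb1 together on the y axis, both on log scales, coloured red for 2 or more UMIs of the proliferation genes Mki67 and Top2a together, grey for 1 and blue for 0; filled circles are barcode set 1 and open triangles set 2. The dotted line marks the 2 UMIs the rule asks for. The red cells lie further right, at a median of 15554 UMIs, than the blue cells, at 3269.5 UMIs.

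Igll1 reached 39 UMIs in a cell, with a median of 6, and was seen in 211 of the 228 cells (92.5%). Vpreb1 reached 64 UMIs, with a median of 10, in 222 cells (97.4%). Cd79a ran between 1 and 59 UMIs with a median of 10. Most members thus held both surrogate light chain transcripts well above the limit that chose them. At the edge of the rule, the 11 cells with 2 UMIs of Igll1 and Vpreb1 had 1294 CPM of Vpreb3 and 218 CPM of Lef1 (CPM are UMIs per 1000000 UMIs summed over the cells). The 30 cells just outside, with 1 UMI, had 1007 and 119 CPM. Cells with the same gates and 0 UMIs had 445 and 62.5 CPM. A single cell among the 11, with 19028 UMIs, had 59.6% of them from marker genes of other lineages. These levels rest on few cells and no interval was taken, so nothing is read from the gaps. A further 20 cells met the rule apart from having no Cd79a UMI.

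The label was checked on 13 early B markers that the rule did not use, among them Vpreb3, Cd79b, Ebf1, Pax5, Rag1, Dntt, Il7r, Blnk and Lef1. Of the 228 cells, 226 had at least 3 of them, with a median of 10. A second group of B cells served as the nearest comparison throughout: 254 cells with Cd79a and Ms4a1, the gene of the mature B antigen CD20, and with no Igll1 or Vpreb1 UMI, here called Ms4a1 B cells. Of these 254 cells, 251 also had at least 3 of the 13 markers, with a median of 6 at a median depth of 3661 UMIs. Connective cells, 5854 cells with at least 10 Col1a1 UMIs and no Cd79a, had a median of 1 at 14412 UMIs. The markers thus set the members apart from connective cells. They do not tell members from later B cells, since nearly all Ms4a1 B cells also had 3. The medians were taken at unequal depth, 9949.5 UMIs in members.

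Transcripts of other lineages were present at low levels. In 11 members (4.82%) they exceeded 2% of UMIs, and without these cells Col1a1 was 49.1 CPM, against 659.9 CPM over all members, and the haemoglobin gene Hbb-bs 495 CPM, against 3719. Summed over each list, members and Ms4a1 B cells had 2557 and 11575 CPM of connective genes, 6552 and 18676 CPM of erythroid genes, 264 and 215 CPM of neutrophil genes, 22.6 and 59.6 CPM of macrophage genes and 163 and 493 CPM of endothelial and muscle genes. Of the 853 neutrophil UMIs in members, 514 were in 1 cell. Plasma cell genes gave 658 and 358 CPM with Jchain and Tnfrsf17 at 0 in both groups, but Mzb1 alone gave 622 CPM in members. T and NK genes gave 33.1 and 8.98 CPM with Cd3e, Cd8a and Ncr1 at 0 in members, where Lck gave 21.6 CPM. Plasmacytoid dendritic genes gave 98.6 and 94.9 CPM with Siglech and Klk1 at 0 in members, where Bst2 gave 61.8 CPM. Other-lineage RNA was thus lower in members than in Ms4a1 B cells for the connective, erythroid, macrophage and endothelial lists, and its part in the results was not tested. Col12a1, the targeted gene, gave 140 UMIs in 24 members (43.3 CPM), of which 88 were in 1 cell, and 33 UMIs (11.0 CPM) without the 11 cells. After thinning to equal depth, a Col12a1 UMI was in 2.78% of members (2.35% in set 1 and 3.05% in set 2) and in 24.9% of connective cells (12.1% and 35.5%). The sets carry no genotype, and none was read from these shares.

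The first comparison asked how the pro-B and pre-B cells differ from all 14946 other kept cells of the joint. They held the machinery of heavy chain recombination, the pre-B receptor and the B-lineage transcription factors, and far more cell cycle transcripts. Genes with at least 100 UMIs on both sides together were counted when the ratio of CPM was at least 2 or at most 0.5 over both barcode sets and within each, here called past 2-fold. Of 16895 genes, 2299 were higher past 2-fold in members (13.6%) and 4980 were lower (29.5%). The median log2 ratio of all genes was -0.00.

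The pre-B receptor list had 7 genes, 4 of them not used by the rule, and these 4 were all higher past 2-fold, with a median log2 ratio of 5.33. Vpreb2, a near copy of Vpreb1, had 121 CPM in members and 0.118 CPM in the other cells. Of 12 V(D)J recombination genes, 10 were higher and none lower (median 2.31), with Rag1 at 106 and 2.73 CPM and Dntt at 234 and 1.35 CPM. Of 23 early B transcription factors, 17 were higher and none lower (median 2.61): Ebf1, which specifies the B lineage, was at 3509 and 517 CPM, Pax5, which commits cells to it, at 359 and 17.0 CPM, and Lef1, an effector of Wnt signalling, at 441 and 8.87 CPM. Of 21 signalling genes, 11 were higher and 1, Cish, lower (median 1.60). Il7r, the receptor chain for interleukin-7, stood at 236 and 18.9 CPM. Since this contrast follows the rule that chose the cells, these counts describe the members and nothing further is read from them. All 29 S phase genes and 26 of 30 G2 and M phase genes were also higher. Most of the other kept cells are not B cells, and the closer comparison with other B cells follows.

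Other lists showed what the members lacked. All 7 macrophage, all 8 connective and 7 of 8 erythroid genes were lower past 2-fold, as were 7 of 7 neutrophil genes. C1qa and S100a8 themselves were left out because the rule used them. The plasma cell, T and NK, plasmacytoid dendritic, and endothelial and muscle lists each had 1 gene higher, Mzb1, Lck, Pacsin1 and Pecam1. Lower in these lists were Xbp1, Nkg7, Siglech and 6 endothelial and muscle genes. A list of 10 genes linked to fetal haematopoiesis had 2 higher, the RNA-binding protein genes Lin28b (10.2 CPM in members and 0.705 CPM in other cells) and Igf2bp3 (122 and 38.4 CPM), and 7 lower. Lin28b rested on 33 UMIs in 18 members. Outside the lists, the largest ratios among genes of which no cell held most of the UMIs were Gm30948, Bfsp2, Mrap and Drc7. Bfsp2, known as a lens filament gene, was at 221 CPM in members and 1.49 CPM in other cells. The transcript 1700027J07Rik was at 252 and 4.43 CPM. Lower genes were led by the neutrophil and monocyte genes Prtn3, Il1b and Elane, the mast cell gene Mcpt4, and S100a4. Each had 1 or 2 UMIs in members.

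The second comparison set the members against the Ms4a1 B cells and so asked what separates early from later B cells in the same joints. Members had higher Dntt, Rag1, Il7r, Lef1, Erg and cell cycle transcripts. They had far lower light chain, MHC class II and later signalling transcripts, while Ebf1 and Blnk lay within 2-fold. Of 6495 genes, 443 were higher past 2-fold in members (6.82%) and 513 lower (7.9%), with an all-gene median log2 ratio of -0.12. Cd79a, Igll1, Vpreb1 and Ms4a1 chose the cells and were left out of the counts of this comparison. Genes that vary with these 4 were also bound to the choice of cells, so the counts are descriptions.

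**Figure D2:**
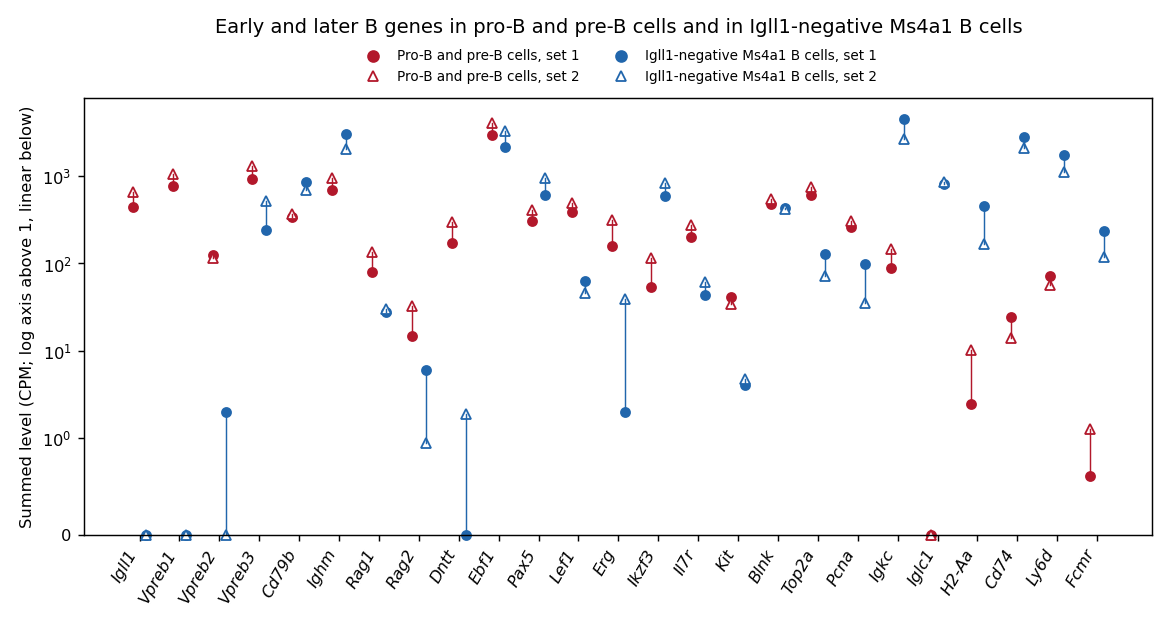
CPM of early and later B genes in pro-B and pre-B cells (left in each pair) and Ms4a1 B cells (right), on an axis that is linear near 0 and logarithmic above; filled circles are barcode set 1 and open triangles set 2. Dntt was 174 and 297 CPM in the sets for members and 0 and 1.89 CPM for Ms4a1 B cells, and Igkc 89.7 and 146 CPM against 4555 and 2712 CPM.

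Among pre-B receptor genes, Vpreb3, whose product associates with nascent immunoglobulin chains, had 937 and 1313 CPM in sets 1 and 2 of members, against 243 and 522 CPM in Ms4a1 B cells, a ratio of 2.60 (2.39 to 2.82). Both sets were higher in members, but with cells rich in other-lineage UMIs left out on both sides, an alternative chosen after seeing the data, Vpreb3 was 1161 against 520 CPM and no longer past 2-fold in each set. Ighm, the mu heavy chain, had 705 and 948 CPM in members, against 3025 and 2056 CPM in Ms4a1 B cells, a level 2.87-fold lower (2.73 to 3.02), and no longer past 2-fold in each set with members taken at 1 UMI of Igll1 and Vpreb1. Cd79b, the partner of Cd79a, was lower in members, at 354 CPM against 747 CPM over both sets, but not past 2-fold in each set. Vpreb2 had 390 UMIs in members and 1 in Ms4a1 B cells. Its last 300 bases match Vpreb1 at 288 positions and the transcripts are 96.5% identical, so how reads were split between the genes is uncertain, and the Vpreb1 rule chose the cells. The list had 2 genes higher, 1 lower and a median log2 ratio of 0.15.

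The recombination genes went both ways. Rag1 had 79.3 and 134 CPM in the sets of members, against 27.9 and 30.3 CPM in Ms4a1 B cells, a ratio of 3.60 (2.64 to 5.00). The annotation places B230118H07Rik over part of Rag1. Rag2 gave 76 UMIs in members and 4 in Ms4a1 B cells, too few to be counted. Dntt, the base-adding enzyme TdT, gave 758 UMIs in members and 2 in Ms4a1 B cells, a ratio of 183 (50.4 to 1512). Of 9 genes tested in the list 4 were higher, Rag1, Dntt and the DNA-bending proteins Hmgb1 and Hmgb2, and 1 was lower, the hairpin-opening nuclease Artemis (Dclre1c, 33.4 and 90.4 CPM). Hmgb1 stood at 2856 CPM in members and 495 CPM in Ms4a1 B cells, and Hmgb2 at 2561 and 476 CPM. Members also held more dividing cells, and the parts of stage and division in these ratios were not tested. The median log2 ratio of the list was 0.71.

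Among 22 transcription factors, 2 were higher and 3 lower, with a median log2 ratio of -0.52. Lef1 had 390 and 493 CPM in sets 1 and 2 of members, against 63.7 and 45.4 CPM in Ms4a1 B cells, a ratio of 8.59 (6.86 to 10.9). Erg, an ETS factor of early haematopoiesis, had 160 and 318 CPM in members, against 1.99 and 38.8 CPM, a ratio of 8.84 (6.48 to 12.4). These were the only 2 factors of the list higher past 2-fold. Ikzf3 (Aiolos), a zinc finger factor that is known to follow pre-B receptor signals, had 53.7 and 116 CPM in members, against 593 and 837 CPM in Ms4a1 B cells, 8.99-fold lower (7.87 to 10.3). Spib and Arid3a were lower too, at 38.7 and 33.1 CPM in members and 206.5 and 139 CPM in Ms4a1 B cells. The lineage factors themselves stood nearer together. Ebf1 had 2947 and 4087 CPM in members, against 2165 and 3323 CPM in Ms4a1 B cells, Pax5 359 against 836 CPM over both sets, and Bach2, which restrains plasma cell fate, 780 against 1750 CPM. None of these 3 was past 2-fold in both sets.

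The signalling genes leaned to the later cells, with 3 of 18 higher and 7 lower (median log2 ratio -0.83). The 3 higher genes were receptors of progenitors: Il7r had 199 and 273 CPM in the sets of members, against 43.8 and 60.6 CPM in Ms4a1 B cells, a ratio of 4.28 (3.42 to 5.41). Flt3, the receptor of Flt3 ligand, had 38.0 and 7.05 CPM, and Kit, the receptor of stem cell factor, 37.7 and 4.49 CPM. The lower genes were Lyn, Blk, Plcg2, Pik3ap1, Il2rg, Ptpn6 and Cd72. Lyn, a kinase of the antigen receptor, was at 118 CPM in members and 815 CPM in Ms4a1 B cells, and Cd72, an inhibitory co-receptor, at 64.9 and 300.1 CPM. The adaptor Blnk, at 514 and 420 CPM, was not past 2-fold.

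Light chain and later B genes separated the groups: 15 of 16 were lower, none higher, with a median log2 ratio of -2.99. Igkc, the kappa constant region, had 89.7 and 146 CPM in sets 1 and 2 of members, against 4555 and 2712 CPM in Ms4a1 B cells, 28.2-fold lower (25.4 to 31.4). The lambda constant genes Iglc1 and Iglc3 were at 0 UMIs in members and 842 and 300.8 CPM in Ms4a1 B cells, at least 908-fold and at least 324-fold lower when the members' total is set to 3 UMIs. Iglc2 had 3 UMIs in members and 574 in Ms4a1 B cells, 397-fold lower (135 to 1930). Fcmr, the IgM Fc receptor, also had 3 UMIs in members, 169-fold lower (57.0 to 824). The activation gene Cd83, the adhesion gene Cd2, the delta heavy chain Ighd and the inhibitory receptor Cd22 were lower as well, at 3.71, 1.24, 24.1 and 13.9 CPM in members and 128, 75.0, 147 and 95.6 CPM in Ms4a1 B cells. Igkc overlaps the annotated gene Gm30211. Of 5 MHC class II genes tested, 4 were lower (median -1.69). Among them H2-Aa was at 6.18 and 260.4 CPM and the invariant chain Cd74 at 19.2 and 2331 CPM.

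Cell cycle transcripts went the other way. Of 28 S phase genes 27 were higher and none lower (median log2 ratio 2.48), and of 29 G2 and M phase genes 22 were higher and none lower (median 2.31). The topoisomerase Top2a was at 679 CPM in members and 89.1 CPM in Ms4a1 B cells, the nucleotide hydrolase Dut at 494 and 82.1 CPM and the replication clamp Pcna at 284 and 55.2 CPM. Of 12 genes of the marrow niche and surface stages, Cd24a (919 and 385 CPM) and Bst1 (38.7 and 19.2 CPM), both surface proteins used to stage B precursors, were higher. Ly6d (64.3 and 1321 CPM), Cd38, the phosphatase CD45 (Ptprc, 103 and 484 CPM) and the chemokine receptor Ackr3 were lower. Of 11 apoptosis genes the survival genes Bcl2 (11.1 and 50.02 CPM) and Mcl1 (189 and 428 CPM) were lower, and of 10 glycolysis genes Pgk1 (196 and 81.4 CPM) was higher. None of 7 genes linked to fetal haematopoiesis passed 2-fold, with a median of -1.37.

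**Figure D3:**
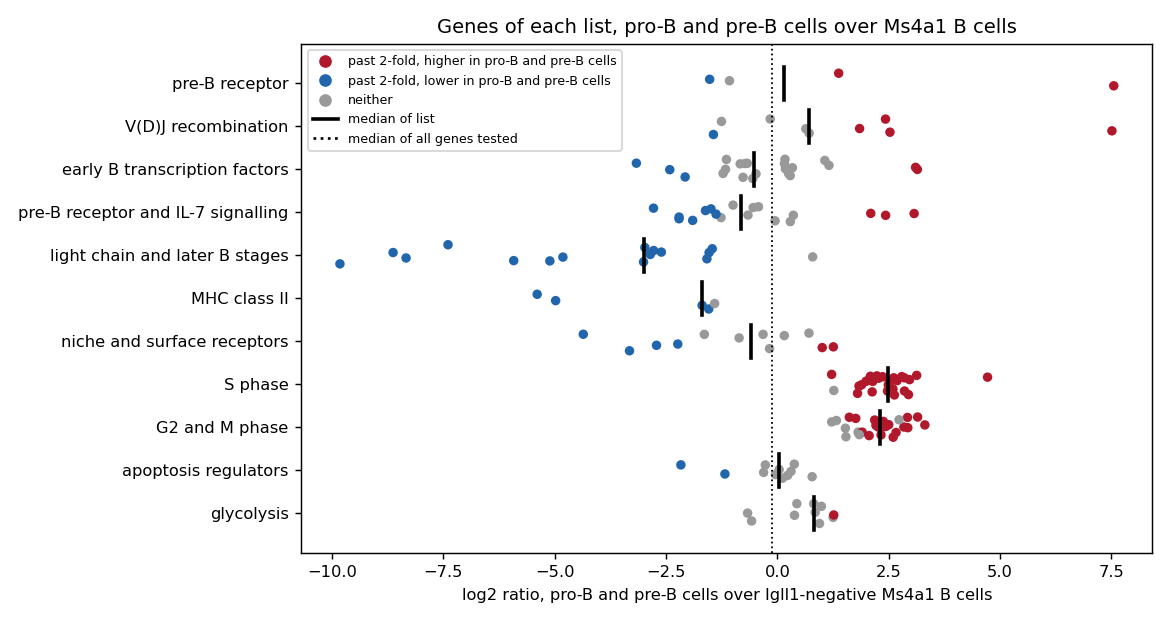
Log2 ratio of CPM in pro-B and pre-B cells over Ms4a1 B cells for every tested gene of 11 lists, 1 point per gene, red where past 2-fold higher, blue where past 2-fold lower and grey otherwise; the bar is the list median and the dotted line the median of all genes, -0.12. S phase genes sit almost wholly on the right (27 of 28 red) and light chain and later genes on the left (15 of 16 blue).

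Outside the lists, large ratios in genes of which no cell held most of the UMIs were seen for Gfra2, a receptor chain for neurturin, with 281 UMIs in members and 2 in Ms4a1 B cells, Egfl7, a secreted protein best known from endothelium, with 262 and 2, and Arpp21, an RNA-binding phosphoprotein, with 339 and 5. Mrap, an accessory protein of the melanocortin 2 receptor, was at 94.0 CPM in members and 0 in Ms4a1 B cells, at least 48.9-fold higher with the Ms4a1 total set to 3 UMIs. A single member held 30.6% of the Mrap UMIs. Lower genes outside the lists were led by Agbl1 (3.40 and 912 CPM) and the inhibitory receptor Btla (3.09 and 246 CPM).

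Because the members held more UMIs per cell, shares of cells with a transcript were compared after thinning each cell to 2000 UMIs, which left 216 members, 198 Ms4a1 B cells and 5832 connective cells. Dntt was then seen in 27.8% of members (21.9 to 34.3), in 0 of 198 Ms4a1 B cells, where 3 counts would be 1.52% of cells with a UMI and the exact upper limit is 1.85%, and in 0.0857% of connective cells, which should lack it. Unthinned, the members' share was 46.5% and that of Ms4a1 B cells 0.787%. Rag1 was in 18.98% of members (13.98 to 24.9; unthinned 40.4%), 2.53% of Ms4a1 B cells (unthinned 8.66%) and 0.0171% of connective cells. The shares of Dntt and Rag1 in members were thus well above those in connective cells. The source of the connective UMIs was not tested. Lef1 was in 55.6% of members (87.7% unthinned), 11.6% of Ms4a1 B cells (20.5%) and 0.514% of connective cells. Erg was in 34.3% of members (63.6% unthinned), 1.01% of Ms4a1 B cells (3.54%) and 2.06% of connective cells (8.37%). Whether the connective share of Erg is free RNA or expression was not tested, so it gives no background level for Ms4a1 B cells. Igkc ran opposite, in 18.1% of members (30.7% unthinned), 83.8% of Ms4a1 B cells (89.4%) and 0.103% of connective cells. Ikzf3 was in 12.5% (30.7%), 69.2% (82.3%) and 0.0857%. Blnk was in 57.4% of members and 56.1% of Ms4a1 B cells, and Ebf1 in 94.4% and 95.5% but also in 54.9% of connective cells, which makes it a poor single marker in this tissue.

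**Figure D4:**
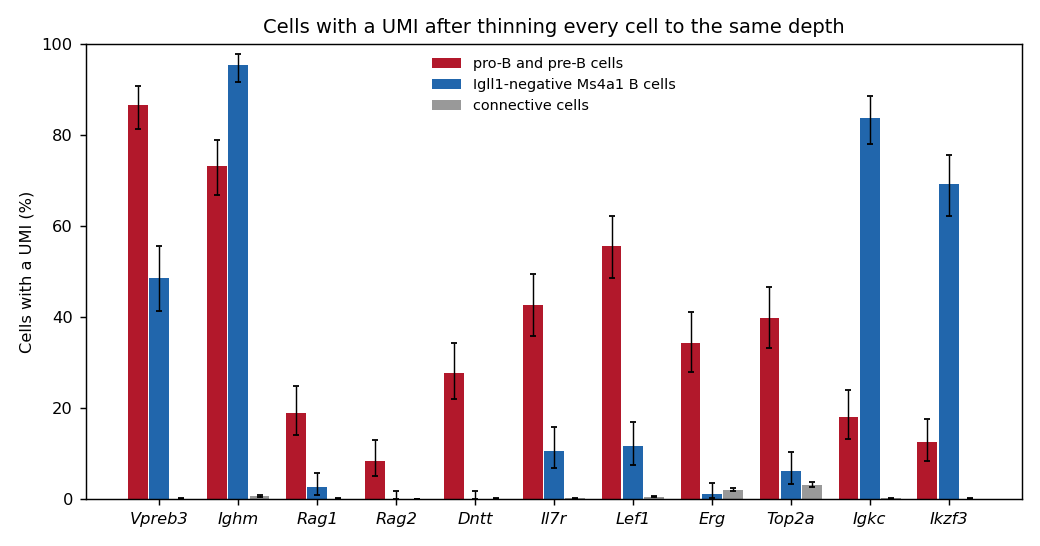
Share of cells with at least 1 UMI after thinning every cell to 2000 UMIs, for pro-B and pre-B cells, Ms4a1 B cells and connective cells from left to right in each gene, with 95% exact binomial intervals. Dntt and Rag1 bars are high in members alone, at 27.8% and 18.98%, whereas Igkc and Ikzf3 bars are high in Ms4a1 B cells, at 83.8% and 69.2%.

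The third comparison asked how dividing members differ from the others. Mki67 and Top2a, which mark dividing cells, gave 2 or more UMIs together in 136 members, here called cycling (60 in set 1 and 76 in set 2), and none in 80, here called non-cycling (24 and 56). The remaining 12 had 1 UMI and were left out. At equal depth, at least 1 such UMI was seen in 50.5% of members (43.6 to 57.3) and in 10.6% of Ms4a1 B cells (6.69 to 15.8), with set values of 55.3% and 47.3% against 11.5% and 10.2%. The share in members was thus above that in Ms4a1 B cells in both sets. The cycling cells had a median of 15554 UMIs and the non-cycling cells 3269.5, so depth and division cannot be told apart in the unthinned split.

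With the cell cycle lists left out, 309 of 4567 genes were higher past 2-fold in cycling members (6.77%) and 216 lower (4.73%), with an all-gene median log2 ratio of 0.04. Igll1 and Vpreb1 stayed in these counts, but the rule asks for 2 of their UMIs and so raises their level in shallow cells, and nothing is read from them. Vpreb3 was at 925 CPM in cycling and 2485 CPM in non-cycling members, Lef1 at 348 and 1137 CPM, and Erg at 174 and 715 CPM. When the cells were first thinned and then split, a choice made after seeing the data, only 61 of the higher and 9 of the lower genes remained past 2-fold and 6 went the other way. Thinning set only the groups in this split, and the levels are sums of all UMIs, not levels at equal depth. Vpreb3 then stood at 1012 CPM in 109 cells with a proliferation UMI and 1295 CPM in 107 without, Lef1 at 374 and 555 CPM and Erg at 198 and 298 CPM, none past 2-fold. Gadd45g, a stress and growth arrest gene, was lower in both splits. It was at 43.4 CPM in cycling and 567 CPM in non-cycling members in the unthinned split. In the thinned split Gadd45g was at 30.2 and 255 CPM. Gm32569 was also lower in both. Of the genes with the largest ratios outside the lists, Atad5, Cep128, Kif15, Ncapg2, Neil3 and Spc25 were higher in both splits. The cells were split on Mki67 and Top2a, so genes that vary with these were bound to the split.

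The fourth comparison divided the members by Dntt, which is known to be active in pro-B cells and shut down as the pre-B receptor appears. It gave 106 Dntt-positive cells (42 in set 1 and 64 in set 2) with a median of 10131 UMIs and 122 Dntt-negative cells (46 and 76) with 9842.5 UMIs. The depths were not matched within sets, with medians of 19279.5 against 10056.5 UMIs in set 1 and 7515 against 9292 in set 2. Dntt-positive cells had higher Arpp21 and lower Ikzf3, Igkc and Cd72, while calls for Erg, Kit, Vpreb2 and Ptpn6 depended on the processing. Few genes differed: of 4731 tested, 72 were higher past 2-fold (1.52%) and 43 lower (0.909%), with an all-gene median log2 ratio of 0.08. Without genes of which 1 cell held over 25% of the UMIs on the higher side, 63 were higher and 18 lower. With levels averaged over cells, 19 of the 72 higher and 28 of the 43 lower genes remained past 2-fold, and Erg and Kit did not. Igll1 and Vpreb1 stayed in these counts, and their levels are descriptions.

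Erg had 233 and 566 CPM in sets 1 and 2 of Dntt-positive members, against 79.1 and 104 CPM in Dntt-negative members, a ratio of 4.18 (3.49 to 5.03). Kit stood at 62.8 and 12.9 CPM, with over 25% of its UMIs on the higher side in 1 cell, and Arpp21 at 175 and 35.05 CPM, a ratio of 5.00 (3.75 to 6.78). Ikzf3 had 8.06 and 12.2 CPM in the sets of Dntt-positive members, against 105 and 206 CPM, 15.9-fold lower (9.59 to 28.2). Arpp21 is thus higher, and Ikzf3 lower, in the cells with Dntt. Erg was higher in summed levels in both sets, but not past 2-fold with levels averaged over cells. Igkc had 15.0 and 16.2 CPM in Dntt-positive members, against 174 and 257 CPM in Dntt-negative members, 14.0-fold lower (9.33 to 21.9). Vpreb2 was at 167 and 74.4 CPM, and no longer past 2-fold in each set without other-lineage cells. Cd72 was at 21.8 and 108 CPM and the phosphatase Ptpn6 at 21.2 and 56.6 CPM.

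**Figure D5:**
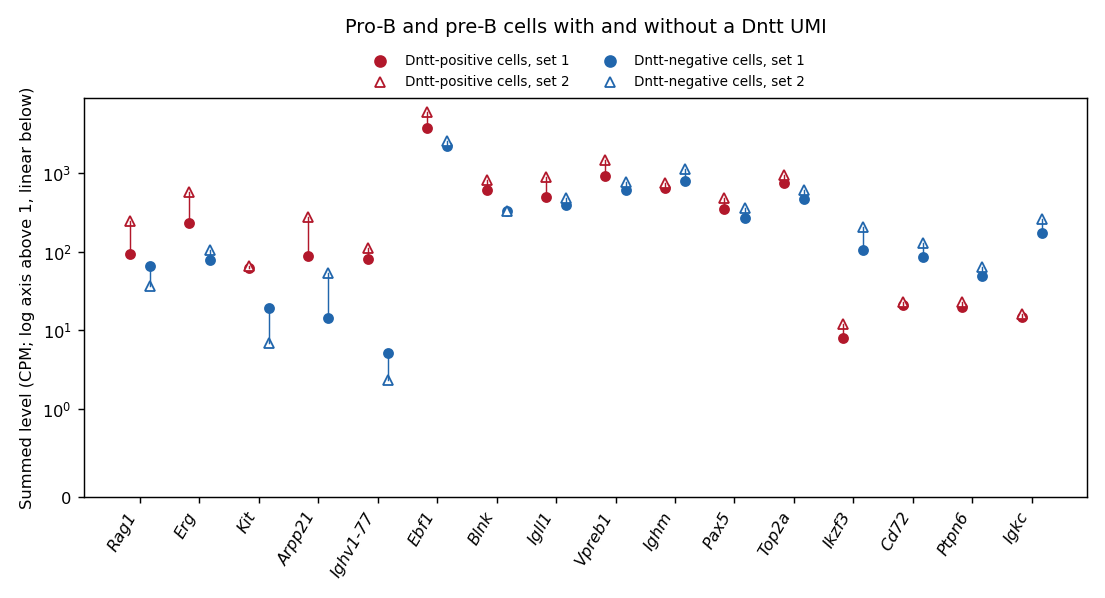
CPM of selected genes in Dntt-positive members (left in each pair) and Dntt-negative members (right), on an axis that is linear near 0 and logarithmic above; filled circles are barcode set 1 and open triangles set 2. Erg lies higher and Ikzf3 and Igkc lower in Dntt-positive members in both sets, at 233 and 566, 8.06 and 12.2, and 15.0 and 16.2 CPM.

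Other genes of the pathway varied less between these cells. Igll1 was at 669.9 CPM in Dntt-positive and 432 CPM in Dntt-negative members, Vpreb1 at 1147 and 683 CPM, Vpreb3 at 1243 and 1003 CPM, Ighm at 692 and 957 CPM and Pax5 at 404 and 314 CPM, none past 2-fold. Rag1 had 92.1 and 246 CPM in the sets of Dntt-positive members, against 64.9 and 36.2 CPM, and so was past 2-fold in set 2 alone. Ebf1 was at 4694 and 2338 CPM over both sets but not past 2-fold in set 1. None of the 6 V(D)J genes tested, none of 28 S phase genes and none of 29 G2 and M phase genes passed 2-fold. Of all genes tested only 1.52% were higher and 0.909% lower, so nothing is read from these counts. The median log2 ratios were -0.05 for S phase and 0.31 for G2 and M phase. At least 2 proliferation UMIs were seen in 59.4% of Dntt-positive and 59.8% of Dntt-negative members, with 81.0% against 56.5% in set 1 and 45.3% against 61.8% in set 2. Split after thinning, cells whose Dntt UMIs were not drawn count as Dntt-negative, so that group had 156 cells against 122 before. At least 1 such proliferation UMI was then in 38.3% of Dntt-positive and 55.1% of Dntt-negative members. The set values were 52.6% against 56.1% in set 1 and 31.7% against 54.4% in set 2. The equal pooled share and the opposite order of the sets were thus seen only without thinning, in groups made up of different cells. The connective list summed to 835 CPM in Dntt-positive and 4260 CPM in Dntt-negative members, the erythroid list to 4872 and 8212 CPM and the neutrophil list to 111 and 414 CPM, and their part in the difference was not tested. A single Dntt-negative cell held 514 of the 674 neutrophil UMIs of that group.

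Cell by cell, an Igkc UMI was in 11 of 106 Dntt-positive cells (10.4%, 5.30 to 17.8) and in 59 of 122 Dntt-negative cells (48.4%, 39.2 to 57.6). Split after thinning, the shares were 2 of 60 cells (3.33%, 0.406 to 11.5) and 37 of 156 (23.7%, 17.3 to 31.2). Ikzf3 was in 6.60% and 51.6% of cells, and Erg in 88.7% and 41.8% (56.7% and 25.6% thinned). Dntt and Igkc transcripts thus shared few cells. In the thinned split 14 of the higher and 24 of the lower genes remained past 2-fold. Levels there are again sums of all UMIs, over groups with median depths of 8553.5 UMIs with Dntt and 11704.5 UMIs without. Some of the 156 cells without a drawn Dntt UMI hold Dntt UMIs that thinning missed. Arpp21 (224 and 71.7 CPM), Erg (459 and 171 CPM) and Vpreb2 (239.7 and 87.2 CPM) remained higher, and Igkc (18.8 and 145 CPM), Ikzf3 (14.4 and 103 CPM) and Cd72 (27.4 and 75.3 CPM) remained lower. Kit, at 41.9 and 36.5 CPM, did not remain higher, nor did Ptpn6 remain lower.

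Heavy chain variable genes were read from their own transcripts, a part of the data singled out after the values were seen. The members gave 285 Ighv UMIs in 76 cells, over 40 of the 185 Ighv genes in the matrix. A single gene, Ighv1-77 (chr12:115861867-115862355, minus strand, mm10), gave 156 of these in 44 cells, or 54.7% (59.3% in set 1 and 51.2% in set 2), with at most 15 UMIs in a cell. The next genes were Ighv1-85 with 25 UMIs and Ighv1-78 with 16. Ighv1-77 gave 2 of 89 Ighv UMIs in Ms4a1 B cells (2.25%) and 11 of 292 in all other kept cells (3.77%). Ighv UMIs as a whole lay mostly in members with Dntt, 260 in 59 Dntt-positive cells against 25 in 17 Dntt-negative cells. Ighv1-77 gave 150 of the 260 and 6 of the 25. Its UMIs were likewise concentrated there: 79.4 and 109.6 CPM in the sets of Dntt-positive members, against 5.19 and 2.34 CPM in Dntt-negative members. It was seen in 40 of 106 Dntt-positive cells (37.7%) and in 4 of 122 Dntt-negative cells (3.28%), and at 149 and 21.0 CPM in the thinned split. Ighv genes are close in sequence, so how reads were split among them is uncertain, and whether a transcript came from a joined or an unjoined gene cannot be read from these counts.

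Members also varied in how much surrogate light chain they held. They were divided into 3 groups of near equal size by Igll1 and Vpreb1 UMIs per UMI within each barcode set, 77 cells in the lowest, 76 in the middle and 75 in the highest. From low to high, median depth was 15254, 10862 and 4230 UMIs, so the groups also differ in depth, and cycling cells numbered 63, 51 and 22. Dntt was seen in 24.7%, 47.4% and 68.0% of cells. Erg was at 146, 224 and 613 CPM, Lef1 at 281, 415 and 1096 CPM, Vpreb3 at 778, 1126 and 2388 CPM and Ikzf3 at 111.5, 70.4 and 17.5 CPM. Flt3 was at 60.2, 16.7 and 6.55 CPM. The groups were made from the values that chose the cells, whose minimum of 2 UMIs raises the level of shallow cells, so these levels are a description and support nothing. Across the 228 cells Spearman's rho between Igll1 and Vpreb1 per UMI was 0.57, over points that share each cell's total as the divisor.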

How the data were processed

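Knee joint cells of Col12a1 KO and WT mice were measured by single-cell RNA sequencing with 10x 3' v3 chemistry, and reads were aligned and merged by the authors with Cell Ranger 7.0.0, per the labels' protocols, on mm10, per the submitters' processing notes. The authors deposited whole-number UMI counts per gene and barcode, not normalised, per the file headers and values. The matrix holds 257619292 UMIs for 32285 genes, of which 32235 IDs were found in GENCODE M21. Whether intronic reads were counted and how cells were called are not given in the sources used here.

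Counts were summed over each group and scaled to 1000000 (CPM), with exact Poisson, Clopper-Pearson and conditional binomial intervals at 95% (Python 3.11.15, numpy 2.4.6, scipy 1.17.1, pandas 2.3.3). Transcripts were aligned with Biopython 1.88. A gene was past 2-fold if both sides summed to 100 UMIs or more and its ratio reached 2, or was 0.5 or lower, over both barcode sets and in each. The step was tested on simulated data. Thinning to 2000 UMIs used a fixed seed, and 12 members were too shallow for it. In the thinned splits the thinned counts formed the groups, and CPM were taken from all UMIs. Cells are not replicates, so no test was run. Doublets were not called. Values of some list genes are not reported here.

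The members and the 21 gene lists were chosen with earlier results of these data known. Named genes are those of the B-lineage lists, of the other lists the 3 highest by CPM and the 2 with the largest ratios, and outside the lists the 10 largest and 5 lowest ratios. Ighv1-77, and other list genes named where a count was small, were chosen after their values were seen. The alternatives were other quality limits and rule limits, each barcode set alone, cell means, other filters and folds, and, chosen after seeing the data, leaving out other-lineage cells, leaving out genes with over 25% of UMIs in 1 cell, and thinned splits.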

Additional observations from a re-analysis of the deposited data

How the results depend on the processing

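Of 127 values for shares, counts and the rank correlation under the alternatives, 29 moved. Only the correlation of Igll1 with Vpreb1 could be scored as reversed, and it was not. Shares and counts have no direction to reverse. Among single genes, 6 past 2-fold between cycling and non-cycling members went the other way in the thinned split. The share of members was 1.23% in barcode set 1 alone and 1.75% in set 2 alone. Against all other cells, 7279 genes past 2-fold became 13929 with no filter on low counts and 4117 at 4-fold, and the higher share of calls, 31.6%, became 20.0% and 15.3%. Against Ms4a1 B cells, 956 became 1493 in set 2 alone, 3066 with no filter, 234 at 500 UMIs, 2014 at 1.5-fold and 235 at 4-fold. For cycling against non-cycling members, 525 became 3140, 96, 1143 and 117 in the same order from no filter to 4-fold, and 141 in the thinned split, and the higher share, 58.9%, became 87.2% at 4-fold.

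For Dntt-positive against Dntt-negative members, 115 became 178 in set 1 alone, 259 in set 2 alone, 1659 with no filter, 381 at 1.5-fold, 15 at 500 UMIs and 20 at 4-fold. The higher share there, 62.6%, was 46.6% in set 1, 74.5% in set 2, 46.3% with members taken at 1 UMI of Igll1 and Vpreb1, 46.7% with no filter, 73.0% at 1.5-fold, 73.3% at 500 UMIs, 20.0% at 4-fold, 40.5% in the thinned split, 73.6% without other-lineage cells and 77.8% without genes resting on 1 cell. Of the 72 higher and 43 lower genes, 47 and 21 remained without other-lineage cells, where Vpreb2 and Ltb were not called.

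Thinned to 1000 UMIs, shares of members were 13.2% for Rag1, 17.98% for Dntt, 21.5% for Il7r, 40.8% for Lef1, 12.3% for Igkc and 31.6% for Top2a. At 2000 UMIs and in set 1 alone, Il7r was 35.3%, Lef1 47.1% and Top2a 47.1%. Of 588 levels of 84 genes under 7 alternatives, 104 moved, 40 in set 1 alone and 42 in set 2 alone. No paired analysis was possible because the matrix holds both genotypes with no replicate labels. Genes with fewer than 100 UMIs on both sides together, such as Rag2 against Ms4a1 B cells, could not be called.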
